A study of Mus musculus with 9 samples.

Results

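The genes described here are 43 astrocyte genes, matched by symbol among the 54513 rows of a mouse RNA-seq table. They were set down as a list of 35 genes that mark astrocytes at rest (identity genes) and 8 genes known to rise in reactive astrocytes: Gfap, Cd44, Serpina3n, Osmr, Steap4, Cp, Timp1 and Aspg. Of the 43, 42 had enough reads to enter the test across 18690 genes. Timp1, an inhibitor of matrix metalloproteinases, had too few. The libraries came from tissue labelled as hippocampus, 3 mice in each of 3 groups. All 9 mice ate the same base high-fat formulation for 12 weeks. The group HFD had that diet alone. The group Trp had it with tryptophan added at 0.5% by weight. The group IPA had it with IPA, an agent that the labels give by these letters, gavaged every day at 100 mg per kg body weight in saline. There was no group on ordinary chow, so the effect of the diet itself cannot be read, and no saline gavage is named for HFD or Trp, so gavage and IPA cannot be told apart. Strain, age and sex were not given in the sources used here. The table's columns carry codes that the labels pair with these samples without explaining them.

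Astrocytes clear glutamate and potassium from the space around synapses, move water at blood vessels, are joined to each other by gap junctions of connexin 43 (Gja1) and connexin 30 (Gjb6), and pass lipids and metabolites to neurons. After injury or inflammation they turn on filament, acute-phase and cytokine receptor genes, partly through the STAT3 pathway, a state called reactive. In bulk tissue the level of such a gene reflects both how many astrocytes were in the piece and how much RNA each made, and fewer cells and less RNA per cell cannot be told apart.

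To show what lies ahead of the genes whose levels or class the results turn on, the 250 bases before the start of Gjb6, Gja1, Slc39a12 and Serpina3n are printed 5′ to 3′ on the gene's strand, from RefSeq on GRCm38.p6. They lie at chr14:57133612-57133861 on the minus strand for Gjb6, and on the plus strand at chr10:56377050-56377299 for Gja1, chr2:14388148-14388397 for Slc39a12 and chr12:104406458-104406707 for Serpina3n. Capitals mark TATAAA in Slc39a12 and, in Serpina3n, the letters of a glucocorticoid receptor element (GNACA and TGTNC with 3 bases between them).
Gjb6: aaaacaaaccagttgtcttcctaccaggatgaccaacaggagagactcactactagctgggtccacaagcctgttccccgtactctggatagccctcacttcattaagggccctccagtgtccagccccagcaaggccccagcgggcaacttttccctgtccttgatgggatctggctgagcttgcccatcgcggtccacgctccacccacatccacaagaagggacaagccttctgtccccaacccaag
Gja1: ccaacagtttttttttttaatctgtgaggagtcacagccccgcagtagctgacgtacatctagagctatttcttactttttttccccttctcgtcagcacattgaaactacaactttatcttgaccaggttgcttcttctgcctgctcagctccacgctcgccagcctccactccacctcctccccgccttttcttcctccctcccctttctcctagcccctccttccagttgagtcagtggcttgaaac
Slc39a12: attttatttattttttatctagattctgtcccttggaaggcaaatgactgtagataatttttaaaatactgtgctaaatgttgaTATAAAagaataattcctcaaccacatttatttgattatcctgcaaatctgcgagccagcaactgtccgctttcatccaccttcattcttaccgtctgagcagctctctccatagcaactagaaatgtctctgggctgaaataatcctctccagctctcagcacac
Serpina3n: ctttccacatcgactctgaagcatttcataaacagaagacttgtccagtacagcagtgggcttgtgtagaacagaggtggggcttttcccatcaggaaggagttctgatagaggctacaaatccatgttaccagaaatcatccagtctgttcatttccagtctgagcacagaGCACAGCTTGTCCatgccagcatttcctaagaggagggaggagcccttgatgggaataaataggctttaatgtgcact

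Both strands of such windows were searched for 6 patterns, none of which contains another. RefSeq windows were found for 37 of the 43 genes (46 windows), with no entry in the table used for Aqp4, Slc14a1, Sox9, S1pr1, Clu and Sparcl1. The STAT letters TTCNNNGAA occurred in 7 of the 46 windows (15.2%) against 7.02% of all 32851 windows of the same length. The genes with this match were Acsbg1, Agt, Aldoc, Ntsr2, Pla2g7, Slc1a3 and Steap4, of which only Steap4 is on the reactive list. The glucocorticoid receptor letters occurred in 1 window (2.17%, all windows 0.387%), that of Serpina3n. ACAAAG, a SOX site, was in 15.2% of the members' windows (all windows 16.5%), TATAAA in 15.2% (12.4%) and CCAAT in 32.6% (33.8%). The NFI letters (TTGGC and GCCA with 5 bases between them) were in 0 of 46 (0.253%). The windows of Gjb6 and Gja1 held no match to any of the 6 patterns. A match is a match of letters and not a bound site.

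Libraries held 40621084 to 50938746 counts, so that 3 counts correspond to 0.0584 to 0.0751 CPM, the count scaled to the library size after TMM adjustment. Hippocampal neuron markers differed in level: Prox1 ran from 10.3 to 42.3 CPM, C1ql2 from 2.12 to 15.5 CPM and Spink8 from 1.17 to 8.26 CPM, while Calb1 of the dentate list ran from 173 to 243 CPM and the CA field list summed to 770.5 to 959 CPM. The striatal receptor gene Drd1 ran from 20.5 to 102 CPM. The library HFD 3 stood apart before any group was compared. Its sum over 14 thalamus and habenula markers was 729.4 CPM against 240.7 to 467 CPM in the other 8, its sum over 12 oligodendrocyte markers was 16280 CPM against 8238 to 10770 CPM, and its sum over 14 striatal markers was 934.8 CPM, the lowest of the 9. Blood markers were also highest there, at 2511 CPM. The summed level of 13 astrocyte markers, all of them among the genes described, lay between 5735 and 6669 CPM in all 9 libraries. This sum is weighted to the most abundant genes. The mean log2 CPM of the same 13, in which each gene counts alike, was highest in HFD 3, at 7.797 against 7.374 to 7.654 in the other 8. The 14 microglia markers summed to 296.4 to 331.2 CPM in HFD, 320.4 to 338.8 CPM in IPA and 436.2 to 561.7 CPM in Trp, with no overlap between Trp and either other group.

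The astrocyte genes followed the divide of HFD 3. Of the 42 tested, 32 (76.2%) were at their highest of the 3 HFD libraries in HFD 3, against 39.6% of all genes tested. They included 26 of the 35 identity genes and 6 of the 7 reactive genes tested. In 22 of the 42, HFD 3 was the highest of all 9 libraries (17.9% of all genes). HFD 2 was the lowest of the 9 in 21 of them (9.35% of all genes). Values without HFD 3 are therefore given for the genes described singly below, beside them or together further on.

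**Figure D1:**
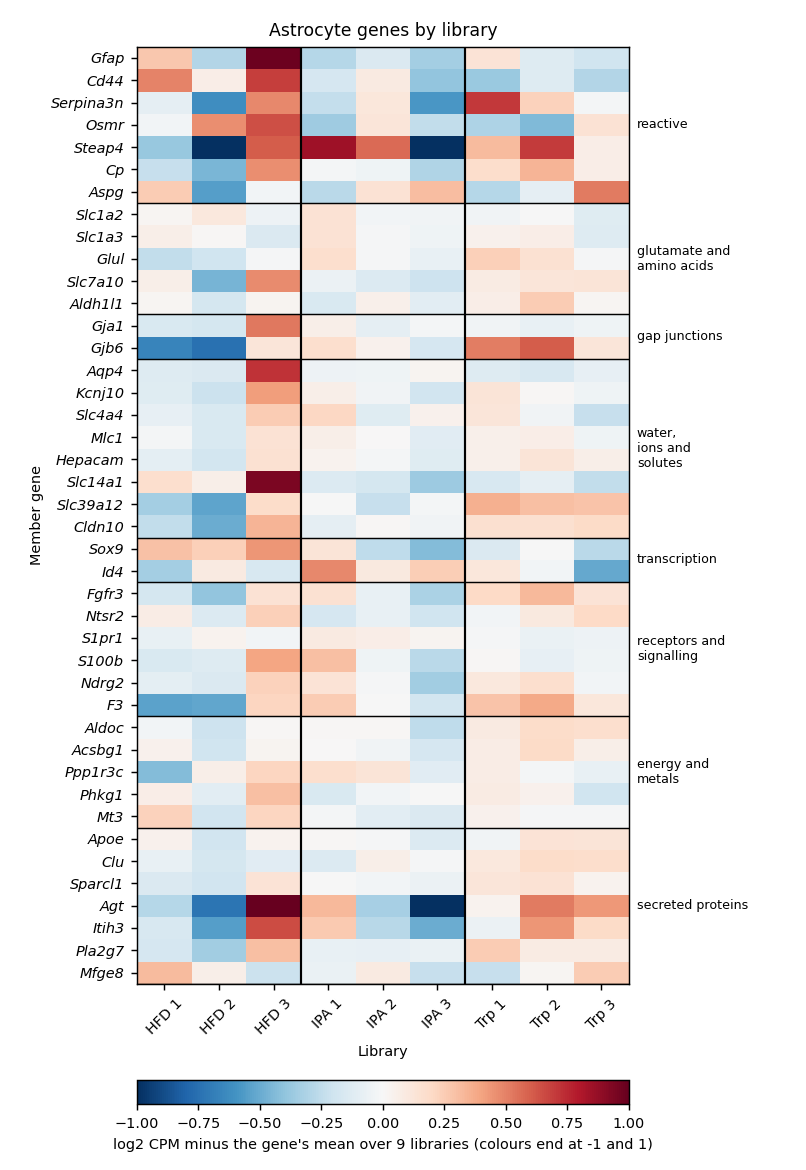
Levels of the 42 tested astrocyte genes (rows, grouped by role) in the 9 libraries (columns), as log2 CPM minus the gene's mean over the libraries; red is above and blue below that mean. The HFD 3 column is red for most genes and the HFD 2 column is blue for most.

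The deposited table places Gjb6 at 14:57360760-57371068 on the minus strand, Gja1 at 10:56253426-56278609 and Slc39a12 at 2:14393127-14499788 on the plus strand, Gfap at 11:102778162-102791738 on the minus strand and Sox9 at 11:112673050-112678586 on the plus strand. All 43 genes lie there on the same chromosome as in the GENCODE M21 annotation of GRCm38 and 42 have the same length, but 0 have the same start, so the build of the table is not settled and its coordinates are not those of the RefSeq windows. Exons of Cp, Glul, Slc7a10 and Phkg1 overlap a protein-coding gene on the other strand (Hps3, Teddm2, Lrp3 and Sumf2), and those of Slc1a2, Aldh1l1, Id4, Fgfr3 and Pla2g7 overlap other transcripts. Whether the counting used strand is not given in the sources used here, so reads of such pairs may be mixed.

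The genes covered a wide span of levels. Per length, as the authors' FPKM averaged over 9 libraries, the most abundant were Apoe, the main lipid carrier of brain (702), Glul, which turns glutamate into glutamine (541.5), Sparcl1, a secreted protein that promotes synapses (491.9), and Ndrg2 (466.8). Aldoc, Clu, Mt3, Slc1a2 and S100b also passed 100 FPKM, and 32 of the 43 passed 10. The reactive genes were low apart from Gfap, the intermediate filament protein (53.2 ± 18.0 FPKM, SD, n = 9). Serpina3n was at 5.39 FPKM and Cp at 2.21 FPKM, and the 5 genes under 1 FPKM were all reactive: Aspg (0.563), Cd44 (0.458), Osmr (0.422), Timp1 (0.135) and Steap4 (0.0791). Timp1 had no count in HFD 1 and at most 14 in the other libraries. Within a group, the median SD of the log2 level was 0.194 for the identity genes, 0.37 for the reactive genes and 0.189 for all genes tested.

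No astrocyte gene passed an adjusted p under 0.05 (edgeR quasi-likelihood, Benjamini-Hochberg over 18690 genes) in any of the 3 comparisons with all 9 libraries in the fit. In Trp against HFD, 0 of 42 were called where 64 genes (0.342%) were called overall. In IPA against HFD, 0 of 42 were called and 1 gene (0.00535%) overall. In Trp against IPA, 0 of 42 were called and 0 genes (0%) overall. At an unadjusted p under 0.05, 11 of the 42 were found in Trp against HFD (all genes 11.3%), 6 in IPA against HFD (10.4%) and 5 in Trp against IPA (4.49%). Groups that did not overlap were found for 7 of the 42 in Trp against HFD (all genes 15.5%) and for 3 in IPA against HFD (15.2%). DESeq2 called 2 of the 42 in Trp against HFD, Gjb6 and Clu (all genes 1.65%), and 0 in the others (0.899% and 0.0803%). It left some genes without an adjusted p. Of those with one, it called 4.88% of the astrocyte genes in Trp against HFD. The shares of all genes were then 1.87%, 1.04% and 0.0819%. Limma on log2 FPKM called 0 in each.

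The middle of the list hardly moved. The median log2 fold change of the 35 identity genes was 0.04 in Trp against HFD (23 above 0, 12 below), −0.01 in IPA against HFD (16 and 19) and 0.11 in Trp against IPA (26 and 9). For the 7 reactive genes tested it was 0.16 (4 and 3), −0.20 (2 and 5) and 0.06 (5 and 2). Over all genes tested, 49.5%, 48.9% and 51.9% were above 0. The comparisons of Trp and IPA with HFD share the HFD libraries, so their values are given side by side and not as 2 separate results.

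The intervals say how large a difference could have been missed. In Trp against HFD the 95% interval lay inside a 2-fold change in either direction for 32 of the 35 identity genes (91.4%), against 76.2% of all genes, and for 2 of the 7 reactive genes. In IPA against HFD this held for 33 identity and 3 reactive genes, and in Trp against IPA for 33 and 5. Changes under 1.5-fold were bounded for 25, 26 and 27 of the 35 identity genes in the same order. In both comparisons with HFD, a change of 2-fold was not excluded for most reactive genes with all 9 libraries in the fit. These widths depended in part on HFD 3. In IPA against HFD the log2 interval of Gfap was −1.32 to −0.01, and −0.61 to 0.07 without HFD 3. That of Steap4 stayed wide without HFD 3, at −0.28 to 2.64.

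**Figure D2:**
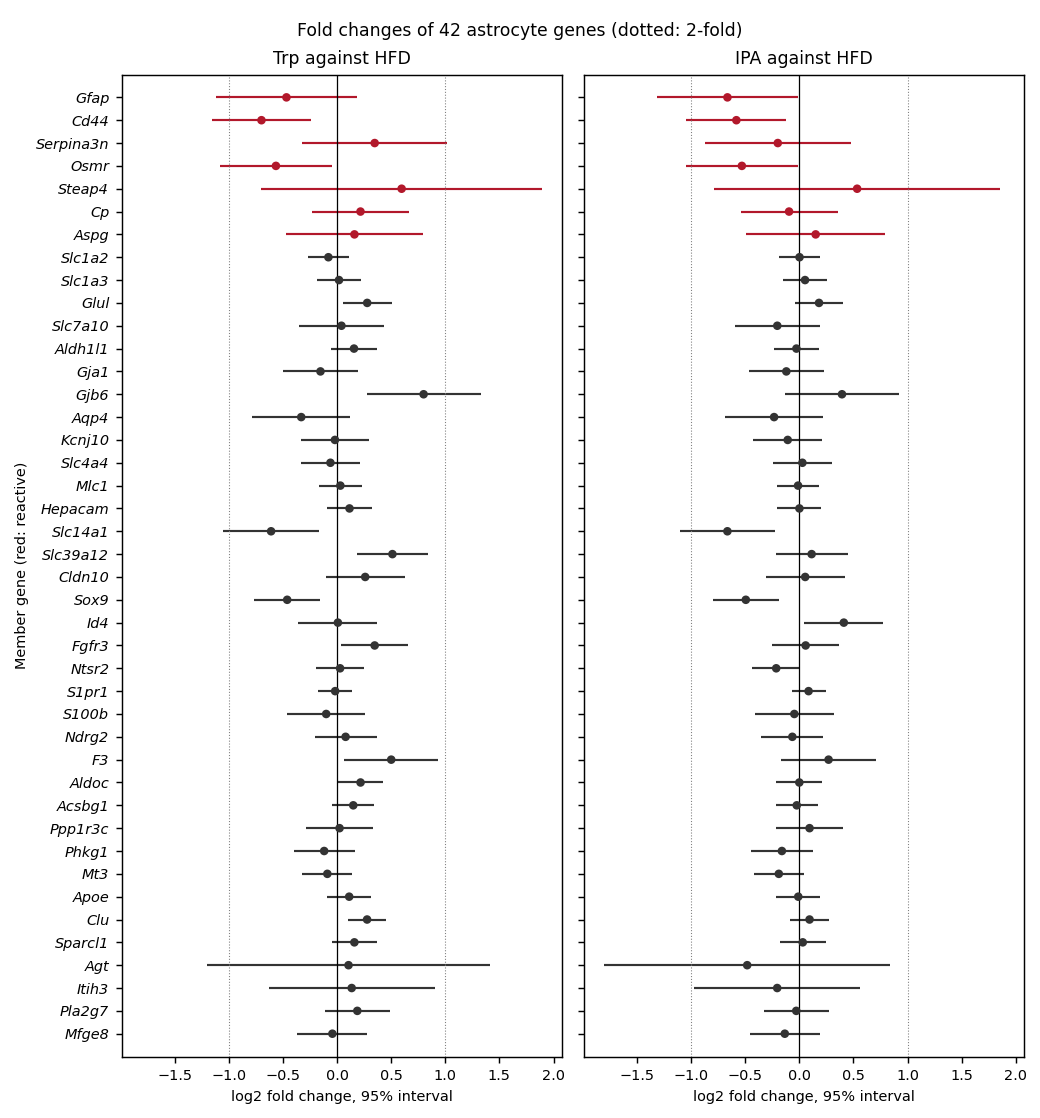
Log2 fold change with its 95% interval for the 42 tested genes (red: reactive), in Trp against HFD (left) and IPA against HFD (right); dotted lines mark 2-fold. Intervals are wide for Agt, Steap4 and Gfap and narrow for transporters such as Slc1a2.

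Among the reactive genes, Gfap had 180.8, 121.8 and 294.5 CPM in the HFD libraries (values are given in the order of replicates 1 to 3 here and below), against 123, 135.6 and 118.3 CPM with IPA and 164.4, 137.1 and 130.1 CPM with Trp. HFD 3 was the highest of the 9 libraries, and HFD 2 lay within the range of the IPA group. The log2 fold change was −0.66 in IPA against HFD (SE 0.28, adjusted p = 0.477) and −0.47 in Trp against HFD (SE 0.28, adjusted p = 0.6). Without HFD 3 the Trp value was −0.07 (adjusted p = 0.89; over 21 alternatives 0.193 to 0.996) and the IPA value −0.27 (adjusted p = 0.456; over 21 alternatives 0.0821 to 0.993).

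Cd44, a hyaluronan receptor that astrocytes raise on injury, was at 3.77, 2.79 and 4.30 CPM in HFD, 2.38, 2.84 and 2.03 CPM in IPA, and 2.07, 2.44 and 2.18 CPM in Trp. All 3 Trp libraries lay below all 3 HFD libraries, whereas IPA 2 overlapped HFD 2. The fit gave a log2 fold change of −0.70 in Trp against HFD (SE 0.21, adjusted p = 0.242) and −0.58 in IPA against HFD (SE 0.21, adjusted p = 0.393). Without HFD 3 the Trp value was −0.56 (adjusted p = 0.269; over 17 alternatives 0.0989 to 0.61) and the IPA value −0.44.

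Osmr, the oncostatin M receptor, which signals through STAT3, gave 2.42, 3.41 and 3.85 CPM in HFD, 1.93, 2.69 and 2.08 CPM in IPA and 1.99, 1.82 and 2.72 CPM in Trp. IPA 2 and Trp 3 lay above HFD 1, so the groups overlapped. Its log2 fold change was −0.53 in IPA against HFD (SE 0.24, adjusted p = 0.477) and −0.56 in Trp against HFD (adjusted p = 0.394), and without HFD 3 these were −0.39 and −0.42.

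Serpina3n, a secreted protease inhibitor and a leading reactive marker, was at 11.1, 7.67 and 16.5 CPM in HFD, 10.01, 12.8 and 7.895 CPM in IPA, and 19.3, 13.9 and 11.6 CPM in Trp, with overlap between all groups. On the log2 scale the difference was 0.35 in Trp against HFD (SE 0.30, adjusted p = 0.728) and −0.20 in IPA against HFD (SE 0.30, adjusted p = 0.856). Without HFD 3 the Trp value was 0.67 (adjusted p = 0.275; over 21 alternatives 0.134 to 0.935), and the direction in IPA turned, to 0.12 (adjusted p = 0.869; over 21 alternatives 0.578 to 0.993). Serpina3n belongs to a family of near-identical copies whose reads the counting could split.

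Cp, which encodes the copper-binding ferroxidase ceruloplasmin, was at 8.16, 7.002 and 13.3 CPM in HFD, 9.48, 9.32 and 7.80 CPM in IPA, and 10.8, 12.1 and 10.04 CPM in Trp. The Trp libraries lay above the IPA libraries without overlap (log2 fold change 0.31, SE 0.21, adjusted p = 0.987). Against HFD the log2 fold change of Cp was 0.22 in Trp (SE 0.20, adjusted p = 0.753) and −0.09 in IPA (SE 0.21, adjusted p = 0.907). Without HFD 3, the highest HFD library for Cp, these became 0.54 and 0.23, so the direction in IPA turned. Aspg ran from 0.989 to 2.08 CPM and Steap4, a metalloreductase, from 0.0807 to 0.450 CPM over all 9 libraries, both with overlapping groups.

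**Figure D3:**
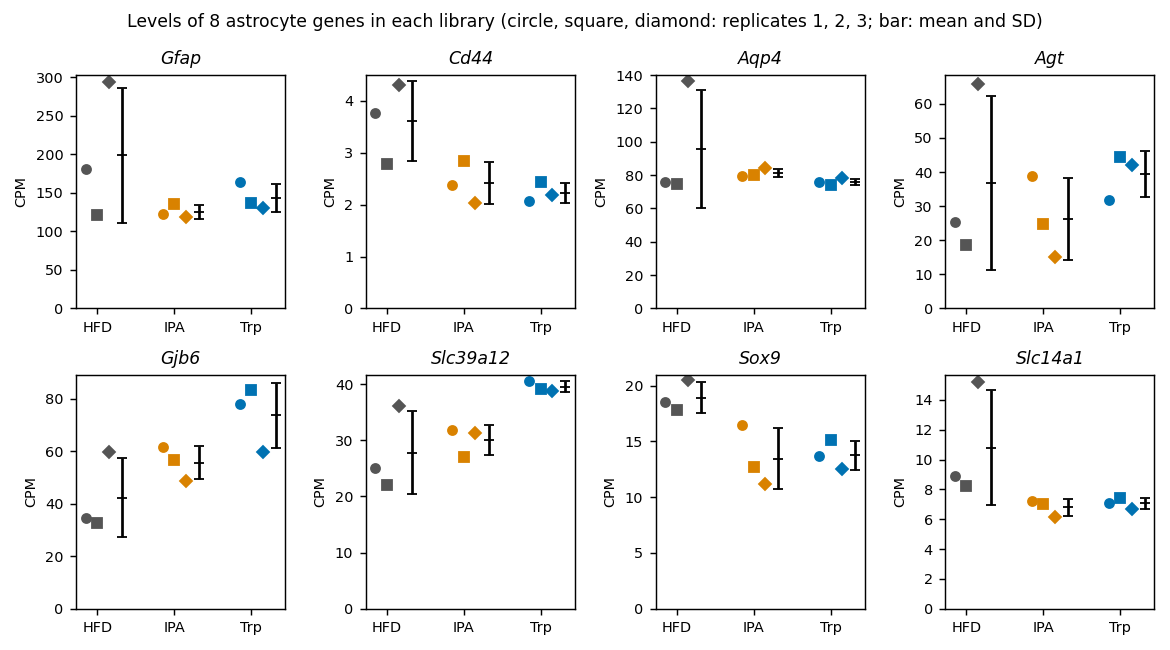
CPM of 8 astrocyte genes in each library (circle, square and diamond are replicates 1, 2 and 3; the bar is mean and SD, n = 3), by group. HFD 3 is the highest HFD library in all 8 panels, and the Trp libraries of Slc39a12 (38.9 to 40.7 CPM) lie above all others.

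The gap junction genes were Gjb6 and Gja1. Gjb6, connexin 30, was at 34.7, 32.65 and 59.8 CPM in HFD, 61.6, 56.6 and 48.8 CPM in IPA, and 77.98, 83.5 and 59.7 CPM in Trp. HFD 3 lay within the range of IPA and just above the lowest Trp library. The log2 fold change was 0.80 in Trp against HFD, or 1.74-fold (SE 0.23, adjusted p = 0.255), and 0.39 in IPA against HFD (SE 0.23, adjusted p = 0.581). In the authors' deposited table Gjb6 had q = 0.0223 in Trp against HFD and was listed as not called.

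Gja1, connexin 43, was at 131, 128.9 and 210.1 CPM in HFD, 152.1, 137.1 and 143.4 CPM in IPA, and 142.6, 138.7 and 141.3 CPM in Trp. Apart from HFD 3 the libraries of Gja1 lay close together, and its log2 fold change was −0.15 in Trp against HFD (adjusted p = 0.781) and −0.12 in IPA against HFD (adjusted p = 0.83). Both directions turned without HFD 3, to 0.12 in Trp and 0.15 in IPA.

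The ratio of Gjb6 to Gja1 within a library compares both connexins in the same RNA. It was 0.265, 0.253 and 0.284 in HFD, 0.405, 0.413 and 0.34 in IPA, and 0.547, 0.602 and 0.422 in Trp. The 3 groups did not overlap, HFD being lowest and Trp highest, and HFD 3 lay beside HFD 1 and 2. The ratio was 1.94-fold higher in Trp than in HFD, 1.44-fold higher in IPA than in HFD and 1.35-fold higher in Trp than in IPA. Each exact permutation test gave p = 0.1, two-sided, the smallest that 3 against 3 libraries can give, and 0.36 after Benjamini-Hochberg adjustment over 18 comparisons of 6 ratios. All 6 ratios were chosen with earlier results of these data known.

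**Figure D4:**
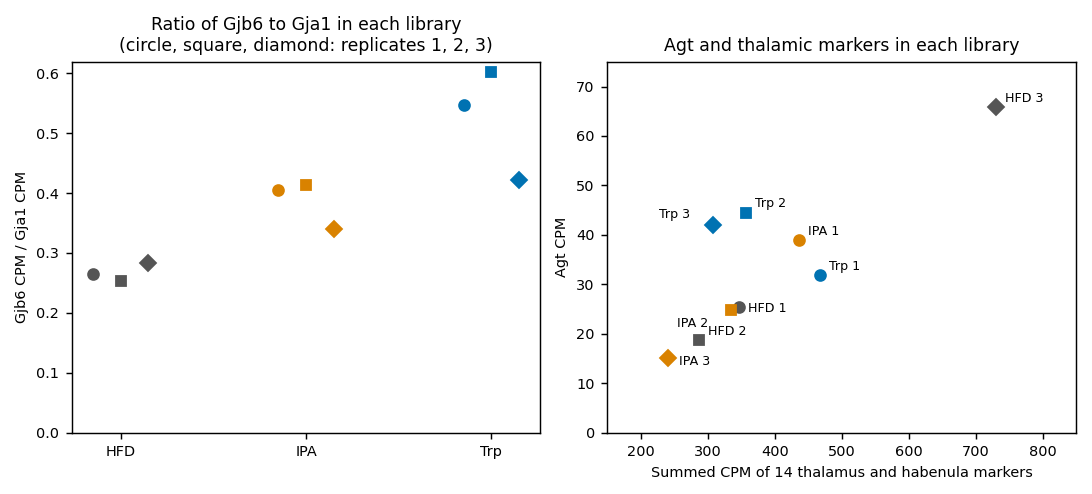
Left, Gjb6 CPM over Gja1 CPM in each library by group; HFD lies at 0.253 to 0.284, IPA at 0.34 to 0.413 and Trp at 0.422 to 0.602. Right, Agt CPM against the summed CPM of 14 thalamus and habenula markers in each library; HFD 3 (729.4 CPM of markers, 65.9 CPM of Agt) lies above the others on both axes.

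Of the transcription factors, Sox9, which specifies and marks astrocytes, was at 18.5, 17.8 and 20.5 CPM in HFD, 16.5, 12.7 and 11.2 CPM in IPA, and 13.7, 15.1 and 12.5 CPM in Trp. Every HFD library lay above every IPA and every Trp library. The fit gave a log2 fold change of −0.49 in IPA against HFD (SE 0.14, adjusted p = 0.313) and −0.46 in Trp against HFD (SE 0.14, adjusted p = 0.242). Without HFD 3 the Trp value was −0.40 (adjusted p = 0.218; over 21 alternatives 0.0983 to 0.576) and the IPA value −0.43. The authors' deposited table gives Sox9 q = 0.0487 in Trp against HFD, not called.

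Id4, an inhibitor of basic helix-loop-helix factors, was at 89.0, 120.2 and 101.3 CPM in HFD, 157.9, 121 and 134.2 CPM in IPA, and 121.9, 111 and 79.3 CPM in Trp. The IPA libraries lay above the HFD libraries without overlap. On the log2 scale the difference was 0.41 in IPA against HFD (SE 0.17, adjusted p = 0.451) and −0.40 in Trp against IPA (SE 0.17, adjusted p = 0.987). Without HFD 3 the IPA value against HFD was 0.40.

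Of the glutamate and amino acid genes, Slc1a2, the main glutamate transporter of the forebrain, was at 2127 to 2368 CPM in HFD, 2150 to 2433 CPM in IPA and 2021 to 2193 CPM in Trp. Its log2 fold change was −0.08 in Trp against HFD (SE 0.09, adjusted p = 0.798, 95% interval −0.27 to 0.11) and 0.00 in IPA against HFD (SE 0.09, adjusted p = 0.994), and −0.12 and −0.03 without HFD 3. Slc1a3, the second astrocyte glutamate transporter, lay at 372.2 to 454.3 CPM over all libraries. Glul was at 1396, 1447 and 1642 CPM in HFD and 1957, 1841 and 1642 CPM in Trp (log2 fold change 0.28, SE 0.10, adjusted p = 0.334), and at 1868, 1648 and 1574 CPM in IPA (0.18, SE 0.10, adjusted p = 0.561). Without HFD 3, Glul was at 0.35 in Trp and 0.26 in IPA. Slc7a10, a serine and small amino acid exchanger, and Aldh1l1, a folate enzyme, had log2 fold changes between −0.20 and 0.16 against HFD, with overlapping groups.

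Among genes of water, ion and solute movement, Aqp4, the water channel of the endfeet, showed how 1 library can set a mean. It was at 75.6, 74.8 and 136.5 CPM in HFD, while the IPA libraries lay between 79.7 and 84.2 CPM and the Trp libraries between 74.25 and 78.02 CPM. The log2 fold change of −0.33 in Trp against HFD (SE 0.20, adjusted p = 0.598) became 0.02 without HFD 3, and −0.23 in IPA against HFD (SE 0.20, adjusted p = 0.723) became 0.11.

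Slc39a12, a zinc transporter, was at 25.2, 22.1 and 36.1 CPM in HFD, 31.8, 27.1 and 31.3 CPM in IPA, and 40.7, 39.2 and 38.9 CPM in Trp. All 3 Trp libraries lay above the other 6. The log2 fold change was 0.51 in Trp against HFD (SE 0.15, adjusted p = 0.234) and 0.40 in Trp against IPA (SE 0.15, adjusted p = 0.987).

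Slc14a1, a urea transporter, was at 8.89, 8.25 and 15.2 CPM in HFD, 7.21, 7.03 and 6.17 CPM in IPA, and 7.07, 7.45 and 6.67 CPM in Trp. All 6 treated libraries lay below all HFD libraries, HFD 3 by the widest margin. The fit gave a log2 fold change of −0.66 in IPA against HFD (SE 0.20, adjusted p = 0.329) and −0.61 in Trp against HFD (SE 0.20, adjusted p = 0.278), and −0.28 in Trp against HFD without HFD 3 (adjusted p = 0.39; over 21 alternatives 0.121 to 0.708). Without HFD 3 it was −0.33 in IPA against HFD. The potassium channel Kcnj10, the bicarbonate transporter Slc4a4 and the partner proteins Mlc1 and Hepacam had log2 fold changes between −0.11 and 0.12 in both comparisons with HFD.

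Receptor and signalling genes included F3, tissue factor, at 21.4, 21.6 and 36.1 CPM in HFD, 37.0, 31.0 and 27.4 CPM in IPA, and 37.9, 40.5 and 33.6 CPM in Trp. Only HFD 3 among the HFD libraries reached the levels of the treated groups (log2 fold change 0.50 in Trp against HFD, SE 0.20, adjusted p = 0.372). Fgfr3, a fibroblast growth factor receptor, was at 74.1, 63.9 and 92.7 CPM in HFD and 96.2, 105.2 and 92.1 CPM in Trp (log2 fold change 0.35, SE 0.14, adjusted p = 0.38; 0.50 without HFD 3). Ntsr2, a neurotensin receptor, lay higher in all Trp libraries (81.8 to 95.9 CPM) than in all IPA libraries (72.6 to 79.2 CPM), with a log2 fold change of 0.24 (SE 0.10, adjusted p = 0.987). S1pr1, S100b and Ndrg2 had log2 fold changes between −0.10 and 0.09 against HFD.

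For energy and metal genes, the brain aldolase Aldoc was at 902.1, 794.8 and 927.4 CPM in HFD and 976.5, 1041 and 1033 CPM in Trp, without overlap (log2 fold change 0.22, SE 0.10, adjusted p = 0.429; 0.26 without HFD 3). Acsbg1, an acyl-CoA synthetase, likewise had Trp libraries above all HFD libraries (log2 fold change 0.15, adjusted p = 0.577; 0.18 without HFD 3). The glycogen genes Ppp1r3c and Phkg1 and the metallothionein Mt3 overlapped between the groups in both comparisons with HFD.

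Among secreted proteins, Clu, the chaperone and lipid carrier clusterin, was at 588.1, 548.1 and 572 CPM in HFD, 563.4, 647.5 and 613.7 CPM in IPA, and 665.7, 705.5 and 699.1 CPM in Trp. The Trp libraries lay above the other 6, and HFD 3 did not stand apart. On the log2 scale the difference was 0.28 in Trp against HFD, or 1.21-fold (SE 0.08, adjusted p = 0.232), 0.18 in Trp against IPA (SE 0.08, adjusted p = 0.987), and 0.28 in Trp against HFD without HFD 3 (adjusted p = 0.141; over 21 alternatives 0.0334 to 0.708). Apoe, Sparcl1, Pla2g7 and Itih3 had log2 fold changes between 0.11 and 0.19 in Trp against HFD.

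Agt, angiotensinogen, was at 25.4, 18.7 and 65.9 CPM in HFD, 38.9, 24.7 and 15.1 CPM in IPA, and 31.8, 44.4 and 41.98 CPM in Trp. In each of HFD and IPA the library with the highest thalamus and habenula sum also had the highest Agt, whereas in Trp that library, Trp 1, had the lowest. The part of the tissue piece in these levels was not tested. The log2 fold change was 0.11 in Trp against HFD (SE 0.55, adjusted p = 0.971, 95% interval −1.21 to 1.42) and −0.48 in IPA against HFD (SE 0.55, adjusted p = 0.799). Without HFD 3 these became 0.84 and 0.25. Mfge8, a phosphatidylserine-binding protein, was at 99.8 CPM in HFD 3 against 143.8 and 120.7 CPM in HFD 1 and 2. This level was not particular to HFD 3, as IPA 3 (98.7 CPM) and Trp 1 (98.8 CPM) lay slightly lower. The Mfge8 to Agt ratio was 1.52 in HFD 3 against 2.64 to 6.53 in the other 8 libraries.

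Without HFD 3, 5 of 43 astrocyte genes passed in Trp against HFD, all higher in Trp, where 323 of 19120 genes (1.69%) passed overall. They were Gjb6, Slc39a12, F3, Cldn10 and Pla2g7. HFD 3 was the highest HFD library for all 5, and for 32 of the 42 genes tested with all libraries. Leaving it out therefore lowers their HFD means in itself, and the upward shift is no separate result. Leaving out any other single library called no astrocyte gene. Gjb6 had a log2 fold change of 1.13 (SE 0.14, adjusted p = 0.00179, 2.19-fold). Slc39a12 reached 0.75 (SE 0.11, adjusted p = 0.0036), F3 0.79 (SE 0.13, adjusted p = 0.00802), Cldn10, a claudin, 0.54 (SE 0.11, adjusted p = 0.024) and Pla2g7, a secreted phospholipase, 0.40 (SE 0.09, adjusted p = 0.0416). Over 21 alternatives their adjusted p ran from 7.67e-05 to 0.719 for Gjb6, 0.0022 to 0.645 for Slc39a12, 0.00192 to 0.809 for F3, 0.024 to 0.885 for Cldn10 and 0.0227 to 0.927 for Pla2g7, with the same direction in all 21. In IPA against HFD without HFD 3, 0 of 43 passed (all genes 0.272%). There Gjb6 lay at 0.73 on the log2 scale (adjusted p = 0.0533) and F3 at 0.56 (adjusted p = 0.0935). The identity median became 0.18 in Trp and 0.10 in IPA against HFD, and the reactive median 0.36 and 0.15. HFD then has 2 libraries and its spread is taken from all groups. With the striatal and thalamic marker means as covariates on all 9 libraries, 2 of 42 passed in Trp against HFD (all genes 0.364%): Slc39a12 (0.74, adjusted p = 0.0355) and Gjb6 (0.83, adjusted p = 0.0189). Leaving out Trp 3 as well gave 8 of 42 in Trp against HFD (all genes 4.09%), the same 5 with Glul, Fgfr3 and Cp, and 2 of 42 in IPA against HFD (all genes 1.3%), Gjb6 and F3, all higher than in HFD. Trp 3 was the lowest Trp library for all of these 8 but Cldn10, and HFD 3 the highest HFD library for all 8. Dropping both widens the gap between Trp and HFD in itself, so these calls are no separate result.

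**Figure D5:**
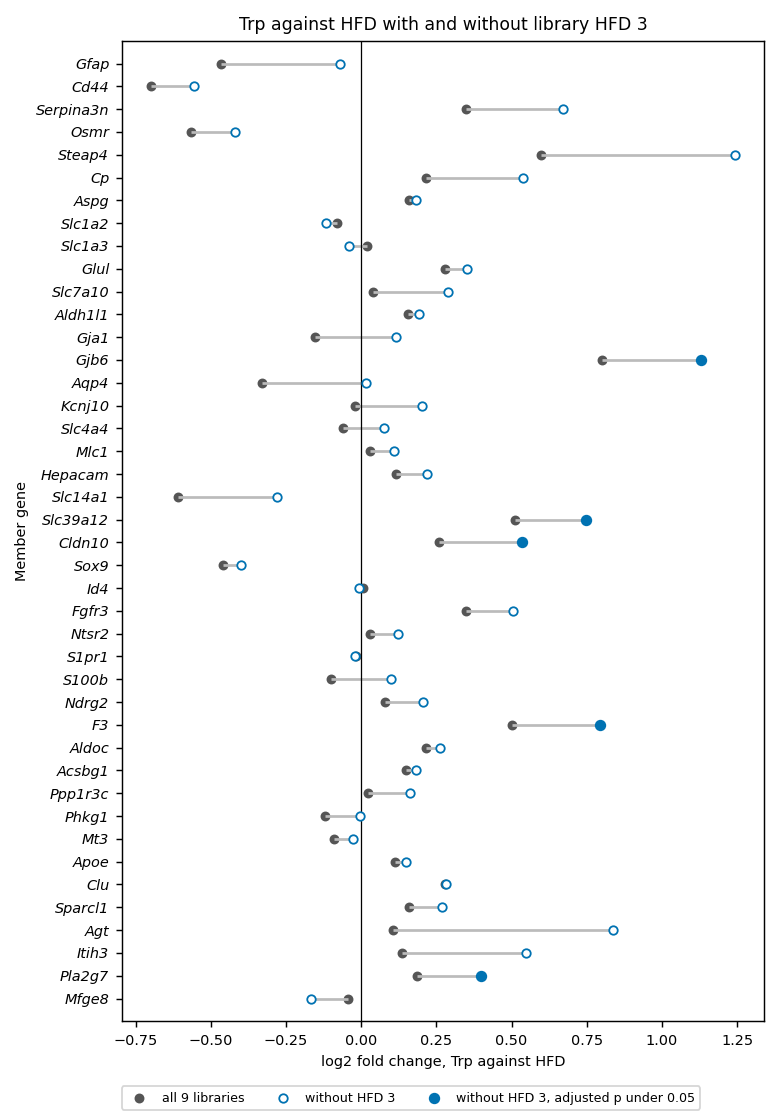
Log2 fold change in Trp against HFD for the 42 genes tested, with all 9 libraries (grey) and without HFD 3 (blue; filled where the adjusted p is under 0.05). Most points move to the right, as leaving out the HFD library that was highest for most genes lowers their HFD means. Gjb6, Slc39a12, F3, Cldn10 and Pla2g7 are filled.

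Trp against IPA compares 2 groups that do not include HFD 3, but the fit takes its spread from all 9 libraries, HFD 3 included. With edgeR 0 genes of the whole table passed, 840 (4.49%) had an unadjusted p under 0.05, and DESeq2 called 15. Without overlap were 14 of 42 astrocyte genes (33.3%), against 11.2% of all genes, and 12 of them were higher in Trp (5.61% of all genes). The largest such log2 fold change was 0.40 for Slc39a12, with 0.24 for Ntsr2, 0.22 for Aldoc and 0.18 for Clu, while S1pr1, a sphingosine 1-phosphate receptor, lay lower in Trp without overlap (−0.10, SE 0.07). Gfap was at 0.20 (SE 0.28), Serpina3n at 0.55 (SE 0.30), Agt at 0.59 (SE 0.55), Cd44 at −0.12 (SE 0.22), Aqp4 at −0.10 (SE 0.20) and Slc1a2 at −0.08 (SE 0.09). With all 9 libraries in the fit, all adjusted p-values of the 42 were 0.987 or above (edgeR quasi-likelihood). Without HFD 3 the fold changes hardly moved, but the SE fell from 0.15 to 0.09 for Slc39a12 and from 0.28 to 0.14 for Gfap. The smallest adjusted p of the same test was then 0.364, for Slc39a12.

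Other astrocyte pathway lists were counted in the same fit. In Trp against HFD, Nes, the intermediate filament nestin, fell by 0.81 in log2 units (SE 0.13, adjusted p = 0.0225), the single call among 9 further reactive genes tested (2 above 0, 7 below). Without HFD 3 its value was −0.80 (adjusted p = 0.0146; over 21 alternatives 9.88e-06 to 0.165). The call of Nes was lost without HFD 2 (adjusted p = 0.0873), IPA 2 (0.0562), Trp 1 (0.05), Trp 2 (0.165) or Trp 3 (0.0522), with limma (0.104 to 0.111), with only the 6 libraries compared (0.102) and with the replicate block (0.0847). Of 12 endothelial markers, 9 lay below 0 and 3 above in Trp against HFD, and 11 below and 1 above in IPA against HFD. The part of vessel cells in the level of Nes was not tested. Of 13 genes of lipid and cholesterol export, Mertk, a phagocytic receptor that microglia also express, rose by 0.87 (SE 0.11, adjusted p = 0.00568), beside the higher microglia sum in Trp given above; the part of microglia was not tested. Without HFD 3 Mertk was at 0.85 (adjusted p = 0.0036; over 21 alternatives 1.58e-09 to 0.0546, the last with only the 6 libraries compared). Of the A1 panel, 13 genes reported for inflammatory reactive astrocytes, 0 passed (5 above 0, 8 below). Its smallest p-values were Gbp2 (−1.05, SE 0.22, adjusted p = 0.0752) and Iigp1 (−1.43, SE 0.36, adjusted p = 0.15). Without HFD 3 Gbp2 passed, at −1.01 (adjusted p = 0.0478; over 21 alternatives 0.00107 to 0.384). Of 11 genes of the A2 panel 0 passed (5 above 0, 6 below). Its smallest p-values were Cd44 and Cd14 (0.79, SE 0.26, adjusted p = 0.275).

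Of 11 genes of the JAK-STAT3 and interleukin-6 family, 0 passed in Trp against HFD, with Cntfr at 0.45 (SE 0.10, adjusted p = 0.094) and Jak2 at 0.28 (SE 0.09, adjusted p = 0.263). Of 17 astrocyte fate factors, Sox9 and Id4 among them, 15 lay below 0 and 0 passed in Trp against HFD. The counts were the same in IPA against HFD, which shares the HFD libraries, HFD 3 included, so these are not 2 separate results. Over all genes tested, 49.5% lay above 0 in Trp and 48.9% in IPA against HFD. Groups did not overlap for 29.4% of these factors in Trp (all genes 15.5%) and 35.3% in IPA (15.2%). Sox2, a stem and glial factor, was at −0.36 in Trp against HFD (SE 0.11, adjusted p = 0.255) and Hes1, a Notch target, at −0.57 in IPA against HFD (SE 0.16, adjusted p = 0.313). Of 13 glycogen, glycolysis and lactate genes 0 passed (7 above 0, 6 below), with Slc16a1, a lactate carrier, at −0.86 (SE 0.17, adjusted p = 0.0669) and Slc2a1, a glucose transporter, at 0.43 (SE 0.13, adjusted p = 0.255). Without HFD 3 both passed: Slc16a1 at −0.59 (adjusted p = 0.0118; over 21 alternatives 0.000178 to 0.361) and Slc2a1 at 0.57 (adjusted p = 0.035; over 21 alternatives 0.00705 to 0.728). The part of vessel cells in the level of Slc16a1 was likewise not tested. Of 15 transport genes 0 passed (5 above 0, 10 below), with Slc7a11 at −0.56 (adjusted p = 0.251).

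In IPA against HFD 0 genes of these lists passed. The smallest p-values per list included Mertk (0.58, SE 0.11, adjusted p = 0.142), Jak2 (0.40, SE 0.09, adjusted p = 0.2), H2-D1 (−0.48, SE 0.11, adjusted p = 0.2) and Nes (−0.54, SE 0.13, adjusted p = 0.231).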

How the data were processed

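RNA was sequenced from 9 mouse libraries, 3 mice in each of the groups HFD, IPA and Trp. Oligo(dT) beads enriched messenger RNA, which was broken up and copied from random primers, per the labels' protocols. StringTie 2.1.3b and mm10 are named, without a role, per the submitters' processing notes. Aligner, counting tool, use of strand and the test behind the authors' own p-values were not given in the sources used here. The table for the series holds, per the file headers, whole-number counts as the authors deposited them and FPKM, which per the labels relate reads to gene length and depth. For each comparison with HFD the authors deposited, per gene, log2 fold changes with p-values and q-values, used only as values of the authors' deposited table. All per-library columns were mapped to a sample and 0 were left over.

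Counts were fitted in R 4.3.3 with edgeR 4.0.16 (filterByExpr with a minimum count of 10, TMM, robust quasi-likelihood fit of all 9 libraries with 1 mean per group, two-sided, Benjamini-Hochberg over 18690 genes, adjusted p under 0.05). CPM are deposited counts over TMM-adjusted library sizes, and their error is the SD of 3 libraries. The edgeR p-values set a difference between groups against the spread between mice, which is estimated from all 9 libraries. Alternatives were DESeq2 1.42.0, limma 3.58.1 on log2(FPKM + 0.5, 0.1 or 1), RLE and upper quartile scaling, no filter, a mean FPKM of at least 1, only the 6 libraries compared, a replicate block, leaving out each library or HFD 3 with Trp 3, marker means as covariates, and adjusted p under 0.1. The fit was also run on simulated counts, which held no outlying library such as HFD 3. That run therefore cannot show how such a library affects the calls. The genes, lists, ratios and alternatives were chosen with earlier results of these data known. In each comparison, statistics are given for the 3 highest-ranked members by unadjusted p in either direction and always for Gfap, Cd44, Serpina3n, Aqp4, Slc1a2 and Agt; of other lists, genes that passed or else the 2 with the smallest p. Others are named by role. Some genes that this rule picks are not reported here. Figures used Python 3.11.15 with matplotlib 3.10.9.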

Additional observations from a re-analysis of the deposited data

How the results depend on the processing

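Genes called in Trp against HFD numbered 64 in all, and 309 with DESeq2, 97 without a filter, 8 with only the 6 libraries compared, 23 with the replicate block, 119 at adjusted p under 0.1, 775 without HFD 3 and Trp 3, and 13 to 323 on leaving out each library (323 without HFD 3). In IPA against HFD the count of 1 became 168 with DESeq2, 6 without a filter, 2 with 6 libraries, 0 with the replicate block, 4 with covariates, 2 at adjusted p under 0.1, 247 without HFD 3 and Trp 3, and 0 to 52 on leaving out each library. In Trp against IPA the count of 0 became 15 with DESeq2, 3 without a filter, 1 where the mean FPKM had to reach 1, 2 with limma at each pseudocount, 7 with covariates, 2 without HFD 3 and Trp 3, and 0 to 1 on leaving out each library. The cause was not tested. Astrocyte genes called in Trp against HFD went from 0 to 2 with DESeq2, 2 with covariates, 8 without HFD 3 and Trp 3 and 0 to 5 on leaving out each library, and in IPA against HFD from 0 to 2 without HFD 3 and Trp 3. The identity median in Trp against HFD was 0.21 without HFD 3 and Trp 3 and 0.0118 to 0.18 on leaving out each library. With limma on log2(FPKM + 0.5) it was 0.17, and the median of all genes 0.07. The reactive median in IPA against HFD was 0.13 without HFD 3 and Trp 3, 0.22 with covariates and −0.35 to 0.15 on leaving out each library.

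The labels do not say whether replicate numbers pair the mice. Over 9 same-numbered pairs, the r of log2 levels less the group mean ran from −0.198 to 0.044. Of the 9 libraries, 1 matched its own number best. With 3 libraries in a group and pieces of tissue that differed, such correlations cannot exclude a pairing. The replicate block called 0 astrocyte genes in each comparison.

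For the 33 named fold changes, the alternatives kept direction and call 672 times, gained a call 9 times and turned the direction 33 times. Many turns were of Slc1a2, whose values lay near 0. Others began further from 0, such as Gfap (−0.66) and Agt (−0.48) in IPA against HFD. Slc1a2 was at 0.0023, 0.0024 and 0.0023 in Trp against HFD and 0.008 in Trp against IPA with limma. In IPA against HFD, Slc1a2 was at −0.0172 with upper quartile scaling, −6e-04 where the mean FPKM had to reach 1, −0.0056, −0.0057 and −0.0056 with limma, −0.0342 without HFD 3 and Trp 3, −0.1925 with covariates, and −0.0587 to 0.0431 on leaving out each library. Agt on leaving out each library ran from −0.21 to 0.84 in Trp and −0.88 to 0.25 in IPA against HFD, Aqp4 from −0.48 to 0.0156 and −0.38 to 0.11, Serpina3n in IPA against HFD from −0.43 to 0.12, and Cd44 in Trp against IPA from −0.23 to 0.0143. Without HFD 3 and Trp 3, IPA against HFD gave 0.13 for Serpina3n, 0.11 for Aqp4 and 0.25 for Agt. Covariates gave 0.0049 for Aqp4 in Trp against HFD; −0.0749 for Id4, 0.0502 for Gfap, 0.22 for Serpina3n, 0.29 for Aqp4 and 0.18 for Agt in IPA against HFD; and −0.0745 for Gfap in Trp against IPA. Counts bound low genes: Timp1 had 0 to 14 reads a library.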

Other observations

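Ratios of other astrocyte genes within a library were computed beside that of the connexins. Slc1a2 to Slc1a3, the glutamate transporters, was 5.20 to 5.71 in HFD, 5.28 to 5.38 in IPA and 5.06 to 5.37 in Trp. Clu to Apoe, both lipid carriers, was 0.530 to 0.596 in HFD, 0.531 to 0.641 in IPA and 0.608 to 0.647 in Trp, and Trp lay above HFD without overlap (exact permutation p = 0.1, adjusted 0.36 over 18 comparisons). Glul to Slc1a3 was 3.25 to 4.41 in HFD, 3.94 to 4.11 in IPA and 4.28 to 4.61 in Trp. Gfap to Aqp4 was 1.63 to 2.39 in HFD, 1.41 to 1.69 in IPA and 1.67 to 2.17 in Trp.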
